A study of Canis lupus familiaris with 30 samples.

Results

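The *MYC* family and its partner genes were followed across 30 primary canine thyroid carcinomas profiled by total RNA sequencing. The members were taken by gene symbol from a list of 8, namely *MYC*, *MYCN*, *MYCL*, *MAX*, *MXI1*, *MXD1*, *MXD4* and *MNT*, and 7 of the 8 were measured among the 30424 genes of the count table. *MYCN* was not analysed here. All 30 samples were labelled as tumor tissue of the thyroid gland, with 1 library per dog tumor and no normal thyroid. The study divides its tumors into follicular and medullary carcinomas (FTC and MTC), but the sample labels used here do not say which tumor is which, so no comparison between FTC and MTC was made, and tumors are named by their library names. Age, sex, breed and treatment of the dogs were not used here.

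MYC proteins are transcription factors of the basic helix-loop-helix leucine zipper type that bind E-box DNA as heterodimers with MAX. MYC-MAX dimers raise the transcription of genes for ribosome production, nucleotide synthesis, metabolism and the cell cycle, whereas MXI1, MXD1, MXD4 and MNT compete for MAX and recruit SIN3 corepressors to the same elements. The balance between both arms is known to shift from MYC-MAX in growing cells to MXD-MAX in differentiating cells, and *MYC* and *MYCL* are frequent oncogenes of human and animal tumors. These are measurements of mRNA, and no protein or gene copy number data of the study were used here.

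The libraries held 12288945 to 45148677 gene counts each (median 25569678). Levels are given as log2 of the count divided by the library's size factor, plus 1, and are compared between tumors and not between genes, since no transcript lengths were used. Thyroid identity was checked with markers fixed by list. Clustering on variable genes split off 5 tumors (TC1020, TC1473, TC1601, TC1936 and TC2289). The members were left out of the clustering but the markers were not, so the markers are no independent check of this split. In the 5 tumors the mean level of 12 C cell markers, expressed relative to each gene's median, lay between 7.49 and 9.43. It lay between -1.77 and 3.39 in the other 25. Relations across tumors were therefore fitted within the 25 tumors, and the 5 tumors are described by their values. Among the 25, 2 libraries stood apart. TC538 had the lowest total, a size factor of 0.279 and a median Spearman's rho of 0.866 with the other libraries. TC1088 had a median rho of 0.898, a thyroglobulin (*TG*) level of 3.70, the lowest of all tumors, and a C cell marker level of -0.65, so it was low in the markers of both thyroid epithelial cell types. The share of counts in the 10 most abundant genes was highest in TC2289 (40.3%), TC1869 (40.2%) and TC538 (37.0%). Fits were made with TC538 and TC1088 (n = 25) and without both (n = 23).

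The RNA levels of *MYC* and *MYCL* varied more between tumors than those of most genes. *MYC* (ENSCAFG00000001086), the founding member of the family and a driver of cell growth, ranged from a level of 6.44 in TC538 through a median of 8.83 to 13.17 in TC2289. After TC2289, the highest *MYC* levels were 11.43 in TC1088, 10.51 in TC1936, 10.29 in TC1020 and 10.05 in TC1473. The lowest after TC538 were 7.55 in TC1164, 7.61 in TC812 and 7.77 in TC1953. Thus 4 of the 5 highest *MYC* levels were in tumors with high C cell markers, but the groups overlapped, since TC1601, the remaining tumor with high C cell markers, had a level of 9.39, below TC640 at 9.80 and TC1744 at 9.49. The raw *MYC* count was 7195 in TC2289 and 24 in TC538, the library with the smallest size factor. The SD of the *MYC* level over the 30 tumors was 1.27, at percentile 71.5 of 18711 genes.

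TC2289 differed from the other tumors with high C cell markers in more than its *MYC* level. Its level of *CALCA*, which encodes calcitonin, was 6.94, whereas *CALCA* was 16.80 in TC1601, 17.78 in TC1473, 18.70 in TC1020 and 19.24 in TC1936. Its follicular marker level was -7.83, the lowest after TC1088 (-9.25). Its library also held 42.1% of its counts in genes without a single symbol, the highest share of all tumors, and the part of this in its levels was not tested. The named genes next to *MYC* in the order of the RefSeq table (UU_Cfam_GSD_1.0) that were measured did not share its rank. *TRIB1*, which encodes a pseudokinase, was at 10.63 in TC2289 against a median of 10.63 over the 30 tumors. *ASAP1*, a regulator of ARF GTPases, was at 9.02 in TC2289, the lowest level of all tumors, while *CYRIB* was at 10.22 against a median of 9.49.

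*MYCL* (ENSCAFG00000003022), the family member first found amplified in small cell lung cancer, had the widest spread of the 7 members, with an SD of 1.62 at percentile 83.8. Its level ranged from 3.41 in TC1869 through a median of 5.27 to 9.73 in TC1601. It was 9.15 in TC1936, 8.66 in TC1088, 8.23 in TC1020 and 7.69 in TC1241, followed by 6.46 in TC1979. In TC2289, the tumor with the most *MYC*, *MYCL* was 5.56, close to the median, and in TC1473 it was 4.45. Tumors with high C cell markers therefore lay at the top of the *MYCL* range and within its lower part. *MYCL* was the member with the fewest reads, with 7 to 988 counts per tumor, all above the floor of 3 counts that a count of 0 allows.

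*MAX* (ENSCAFG00000016212), the shared partner of the MYC proteins and their antagonists, was one of the steadier genes. Its level ranged from 9.67 in TC1164 through a median of 11.08 to 12.27 in TC1601, with an SD of 0.60 at percentile 15.2.

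Of the antagonists, *MNT* (ENSCAFG00000019295), the broadly expressed repressor of the network, was the steadiest, with an SD of 0.55 at percentile 11.3, a median of 8.83 and a range from 7.88 in TC1473 to 10.67 in TC1869. *MXI1* (ENSCAFG00000010706), also called MAD2, ranged from 7.61 in TC812 through 9.35 to 10.58 in TC2289 (SD 0.78). *MXD1* (ENSCAFG00000032746), a gene induced during differentiation, ranged from 5.57 in TC538 through 7.18 to 9.40 in TC1601 (SD 0.89), and its next highest levels were 8.93 in TC2289 and 8.90 in TC1020. *MXD4* (ENSCAFG00000014873) ranged from 5.34 in TC538 through 9.65 to 11.88 in TC1936 (SD 1.29), with TC2289 at 7.76, the lowest level after TC538. In TC2289 the antagonists thus stood at opposite ends of their ranges, *MXI1* and *MXD1* high and *MXD4* and *MNT* (8.33) low. No member was at a count of 0 in any tumor. With 1 library per tumor, neighbouring tumors in these orders cannot be compared beyond their single values.

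**Figure D1:**
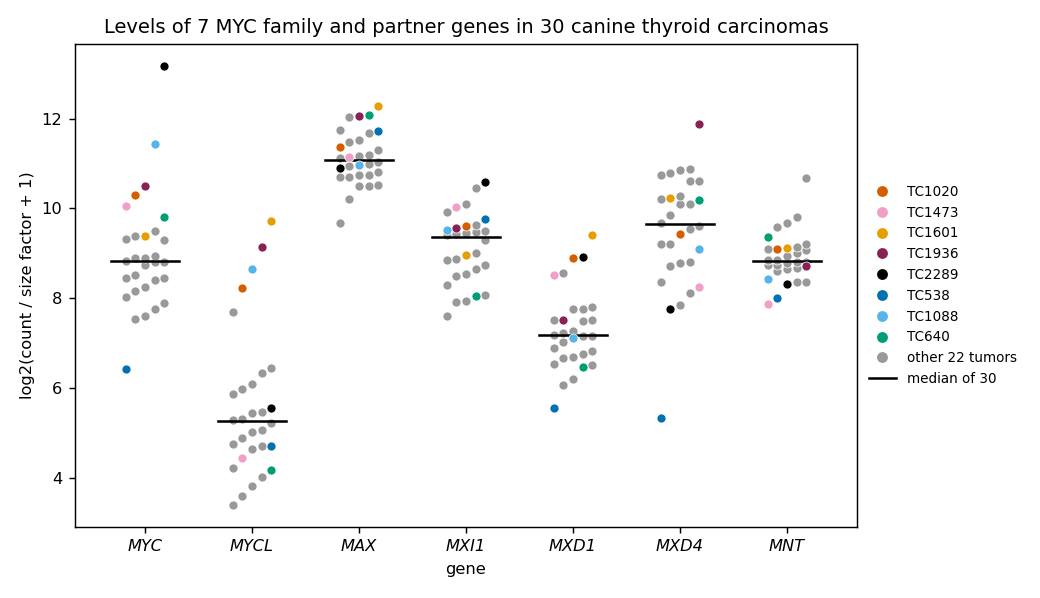
Level of each of the 7 measured members, as log2(count / size factor + 1), with 1 point per tumor in 30 canine thyroid carcinomas and the median as a black line; coloured points are the 5 tumors with high C cell markers, TC538, TC1088 and TC640. *MYC* reached 13.17 in TC2289, whereas the highest *MYCL* level, 9.73, was in TC1601.

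Follicular thyroid cells and C cells are the epithelial cells from which FTC and MTC arise, so each member was set against the mean level of markers of these and 5 other cell states. The slope is the log2 change of the member per log2 unit of the marker level, fitted across all genes with edgeR's quasi-likelihood test. *MYCL* was lower in tumors with more follicular marker RNA. The 12 follicular markers include *TG*, *TSHR* and *PAX8*, and the level was lowest in TC1088 (-9.25), with a *MYCL* level of 8.66. TC1241, at -1.38 on the follicular list, had a *MYCL* level of 7.69, and TC1979, at -1.17, had 6.46. At the other end, TC1869 had the highest follicular level, 2.6, and the lowest *MYCL* level, 3.41. Its library was also the deepest, with 45148677 counts, of which 40.2% lay in 10 genes. The order was not strict, since TC1164 had a *MYCL* level of 6.09 at a follicular level of 0.38 and TC538 had 4.71 at -0.50.

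Across the 25 tumors the slope of *MYCL* was -0.45 (SE 0.07, edgeR adjusted p = 7.9e-05), where 3.53% of the 18106 genes tested fell with the follicular level. Pearson's r was -0.77 (permutation p = 4e-05) and Spearman's rho was -0.62 (permutation p = 0.0013). Without TC538 and TC1088 the slope was -0.69 (SE 0.15, edgeR adjusted p = 0.0215), beside 0.707% of genes falling, with r = -0.67 (permutation p = 0.00048) and rho = -0.61 (permutation p = 0.00235). Leaving out the 2 tumors with the most extreme follicular levels, TC1088 and TC815, gave r = -0.63 (permutation p = 0.00128). Each of the 25 tumors was also left out in turn, and the slope stayed between -0.67 and -0.40, with adjusted p below 0.05 in 25 of 25 fits and highest, 0.0308, without TC1088. *MYCL* had negative slopes on other lists too, none of which passed. They were -0.48 (SE 0.12, edgeR adjusted p = 0.0515) on fibroblast, -0.98 (SE 0.30, adjusted p = 0.142) on macrophage, -0.59 (SE 0.27, adjusted p = 0.148) on endothelial and -0.53 (SE 0.27, adjusted p = 0.704) on C cell markers in the 25 tumors. They were -0.29, -0.57, -0.11 and -0.38 in the 23 tumors, with adjusted p of 0.474 or above. With the total count of the library, *MYCL* had r = -0.46 (permutation p = 0.0305) and rho = -0.33 (permutation p = 0.119) in the 23 tumors. In the 25 tumors r was -0.33 (permutation p = 0.105), and without TC1869 and TC538 it was -0.29 (permutation p = 0.184). The part of the other cell types and of library depth in the relation of *MYCL* to follicular markers was not tested. In bulk tumor RNA, fewer follicular cells and less of these RNAs per cell cannot be told apart.

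*MYC* gave a different picture. Its slope on the follicular list was -0.21 (SE 0.05, edgeR adjusted p = 0.0104) in the 25 tumors, but 0.05 (SE 0.12, adjusted p = 0.923) without TC538 and TC1088, and 0.09 without TC1088 alone. The rank correlation was 0.09 in the 25 tumors (permutation p = 0.675), beside r = -0.47 (permutation p = 0.0471). The relation of *MYC* to follicular markers among the 25 tumors thus rested on TC1088. None of *MAX*, *MXI1*, *MXD1*, *MXD4* and *MNT* reached an adjusted p of 0.05 against any of the 7 lists, with or without both libraries. In the 25 tumors, 0.0276% of all genes were called against the C cell list, 0.0497% against proliferation, 0.21% against lymphocyte, 0.817% against fibroblast, 1.01% against macrophage, 5.47% against follicular and 13.5% against endothelial markers. The slopes of these 5 members on the follicular list lay between -0.01 and 0.10 in the 25 and between -0.09 and 0.23 in the 23 tumors.

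**Figure D2:**
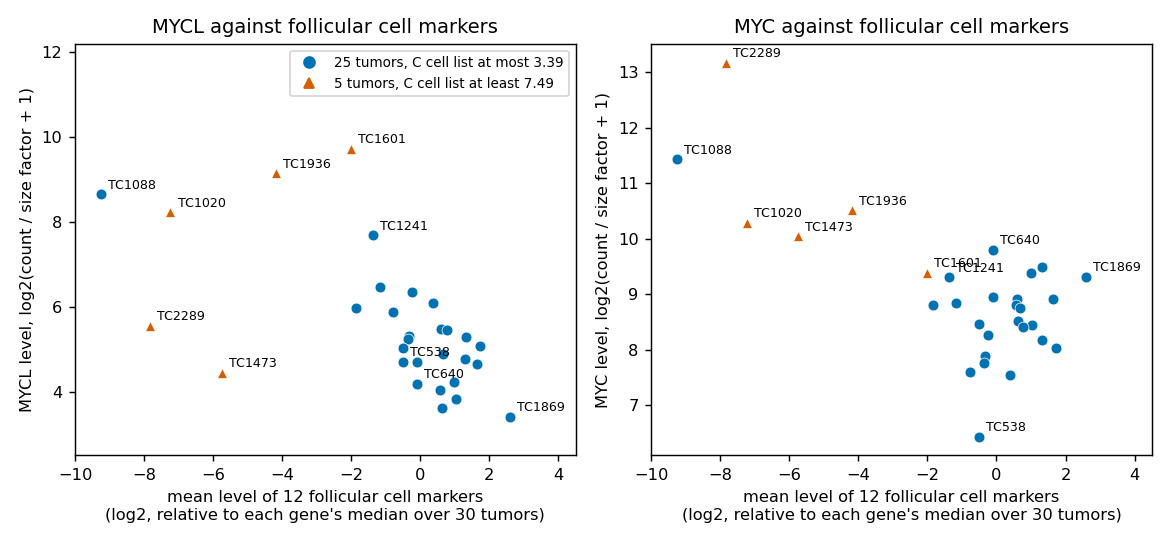
*MYCL* (left) and *MYC* (right) level on the vertical axis, as log2(count / size factor + 1), against the mean level of 12 follicular markers on the horizontal axis (log2, relative to each gene's median), with 1 point per tumor; circles are the 25 tumors with lower and triangles the 5 with high C cell markers. *MYCL* falls from TC1241 to TC1869 also without TC1088, whereas *MYC* in the 25 tumors changes with the follicular level only through TC1088.

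Of single follicular markers, 2 of the 12 fell with *MYCL* in the 25 tumors and none rose, where 0.442% of genes fell. They were *DUOX1*, an oxidase that makes hydrogen peroxide for hormone synthesis, with a slope of -1.06 (SE 0.27, edgeR adjusted p = 0.0308), and *DIO1*, a deiodinase, with -0.75 (SE 0.20, adjusted p = 0.0401). The iodide transporter *SLC5A5* had a slope of -2.08 (SE 0.63, adjusted p = 0.0785; -1.98 in the 23 tumors), *TG* had -1.52 (SE 0.55, adjusted p = 0.161; -1.13 in the 23), and *PAX8*, the lineage transcription factor, had -0.18 (SE 0.19, adjusted p = 0.791). All 12 slopes were negative, with a median of -0.62 beside -0.01 over all genes. Without TC538 and TC1088 none of the 12 passed the test, and their median slope was -0.42.

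The genes whose levels most resembled *MYCL* over the 25 tumors by Spearman's rho were *VWA5B1* (0.73), *CERS3* (0.73), a ceramide synthase, and *KLHL3* (0.71), a substrate adaptor of a ubiquitin ligase. The most opposed were *MYPN* (-0.84), which encodes a sarcomere protein, *TSPAN13* (-0.78), a tetraspanin, and *ATP13A4* (-0.74). Without TC538 and TC1088, rho was -0.81 for *MYPN*, -0.78 for *TSPAN13* and 0.80 for *VWA5B1*. Among the genes next to *MYCL* in RefSeq order, the 3 on the *MFSD2A* side rose with it in the 25 tumors. *MFSD2A*, a lipid transporter, had a slope of 0.91 (SE 0.25, edgeR adjusted p = 0.0439), *PPIE*, a cyclophilin, 0.36 (SE 0.09, adjusted p = 0.0308) and *TRIT1*, a tRNA-modifying enzyme, 0.34 (SE 0.08, adjusted p = 0.0251), beside 2.21% of all genes rising. In either direction, 2.66% of genes were called with *MYCL* in the 25 and 0.601% in the 23 tumors. Without both libraries only *MFSD2A* of these 3 passed (edgeR adjusted p = 0.0178), and *PPT1* and *RLF*, on the other side, had slopes of 0.01 and 0.07 in the 25 tumors (adjusted p = 0.989 and 0.938) and adjusted p of 0.949 and 0.988 in the 23.

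The members were next set against each other, which asks whether the 2 arms of the network moved together. Over the 21 pairs in the 25 tumors, 4 had an adjusted p below 0.05. Those were *MYCL* on *MYC*, *MXD4* on *MXD1*, *MNT* on *MXD1* and *MNT* on *MXD4*. The share of all genes called in the same fits was 6.33% for *MYC*, 20% for *MXD1* and 34.2% for *MXD4*, and 0.823% for *MAX*, whose pairs did not pass. Without TC538 and TC1088, none of these 4 slopes passed and 1 other, *MNT* on *MAX*, did. Each pair was also read in the fit on its other member, where *MXD1* on *MXD4* passed in the 25 tumors (slope 0.39, SE 0.10, edgeR adjusted p = 0.00311). That reading also gave *MYC* on *MAX* (slope 0.58, SE 0.19, adjusted p = 0.0341) and *MAX* on *MNT* (slope 0.69, SE 0.21, adjusted p = 0.0273) as passing in the 23 tumors. In those 23 tumors 19.7% of all genes were called with *MAX* and 16.2% with *MNT*.

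A parallel course of *MYC* and *MYCL* was not seen beyond TC1088. The slope of *MYCL* on *MYC* was 0.65 (SE 0.18, edgeR adjusted p = 0.0323) in the 25 tumors, but rho was -0.11 (permutation p = 0.602), and without TC538 and TC1088 the slope was 0.02 (SE 0.36, adjusted p = 0.985). TC1088 was the tumor of the 25 with the highest level of both genes, and without TC1088 alone the slope was 0.15. TC640, with the highest *MYC* level of the remaining 23, had a *MYCL* level of 4.19, and TC1241, with the highest *MYCL* level of those 23, had a *MYC* level of 9.31. The interval that the SE of 0.36 leaves is wide, so a parallel or an opposed course of moderate size could not be detected.

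*MNT* rose with *MAX*, but its slope passed only when TC538 was left out, a choice made after the data were seen. In the 25 tumors the slope was 0.53 (SE 0.19, edgeR adjusted p = 0.142), with r = 0.45 (permutation p = 0.0235) and rho = 0.53 (permutation p = 0.0068). In the 23 tumors it was 0.61 (SE 0.16, adjusted p = 0.0148), with rho = 0.71 (permutation p = 0.00026), where 19.7% of all genes were called with *MAX*. TC538 departed from this course, since its *MAX* level of 11.73 came with an *MNT* level of 8.00, the lowest of the 25, and without TC538 alone the adjusted p was 0.016 (slope 0.62). When each of the 23 tumors was left out in turn, the slope lay between 0.45 and 0.78 and the adjusted p was below 0.05 in 23 of 23 fits, with the lowest slope without TC1869. *MNT* rose with the total count of the library in the 25 tumors (r = 0.69, permutation p = 0.00026, and rho = 0.55, permutation p = 0.00484), and also in the 23 (r = 0.64, permutation p = 0.00234, and rho = 0.49, permutation p = 0.0185). Without TC1869 and TC538, the 2 libraries with the most extreme totals, r was 0.38 (permutation p = 0.0758). For *MAX*, r with the total count was 0.27 (permutation p = 0.185) in the 25 tumors and 0.43 (permutation p = 0.0392) in the 23. The part of library depth in the relation of *MNT* to *MAX* was not tested. These were among 21 relations of members to total count, share of counts in 10 genes and number of detected genes.

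*MXD4* rose with *MXD1* in the 25 tumors (slope 0.91, SE 0.30, edgeR adjusted p = 0.0329), with r = 0.66 (permutation p = 0.00046) and rho = 0.57 (permutation p = 0.00353). TC538 had the lowest level of both genes, with 13 counts of *MXD1* and 11 of *MXD4*. Without TC538 and TC1088 the slope was 0.70 (SE 0.26, adjusted p = 0.13) and rho was 0.51 (permutation p = 0.0148). *MNT* had a slope of 0.49 (SE 0.17, adjusted p = 0.0457) on *MXD1* and 0.25 (SE 0.09, adjusted p = 0.0391) on *MXD4*, and without both libraries 0.42 (adjusted p = 0.187) and 0.19 (adjusted p = 0.316). *MXD1* fell with the share of counts in 10 genes in the 25 (rho = -0.56, permutation p = 0.00404) and the 23 tumors (rho = -0.53, permutation p = 0.0114). *MXD4* had r = 0.49 (permutation p = 0.0154) with the total count in the 25 tumors and 0.30 (permutation p = 0.171) in the 23. The part of the libraries in these pairs was not tested. Among the 5 tumors with high C cell markers, TC1936 had the highest *MXD4* level of all and an *MXD1* level of 7.53, whereas TC2289 had the second highest *MXD1* level and the second lowest *MXD4* level.

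*MYC* had positive slopes with *MAX*, *MXD4* and *MNT* in the 23 tumors, of which only that of *MYC* on *MAX* (above) passed. It was below an adjusted p of 0.05 in 17 of 23 fits that each left out another tumor, with the highest value, 0.096, without TC640. Read in the fit on *MYC*, none passed. In the 23 tumors the slope of *MAX* on *MYC* was 0.46 (SE 0.17, edgeR adjusted p = 0.231), that of *MNT* was 0.42 (SE 0.17, adjusted p = 0.266) and that of *MXD4* was 0.42 (SE 0.25, adjusted p = 0.432). Without TC1088 alone, the slope of *MNT* on *MYC* was 0.48 (SE 0.14, edgeR adjusted p = 0.0236), where 1252 of 18008 genes rose and 1896 fell. Without TC538 alone it was 0.18 (adjusted p = 0.746). In the 25 tumors it was 0.29 (adjusted p = 0.232), and 0.03 (adjusted p = 0.956) with total count as covariate. The slope of *MYC* on *MXD4* was 0.42 (SE 0.11, adjusted p = 0.00364) without TC1088 but 0.06 (adjusted p = 0.888) without TC538. Without both libraries it was 0.31 (adjusted p = 0.104). In the 25 tumors 34.2% of genes were called with *MXD4*. *MXI1* was the antagonist least tied to the others, with rho between -0.33 and 0.19 against the other 6 members in the 25 tumors, negative for *MXD4* (-0.33) and *MXD1* (-0.19).

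**Figure D3:**
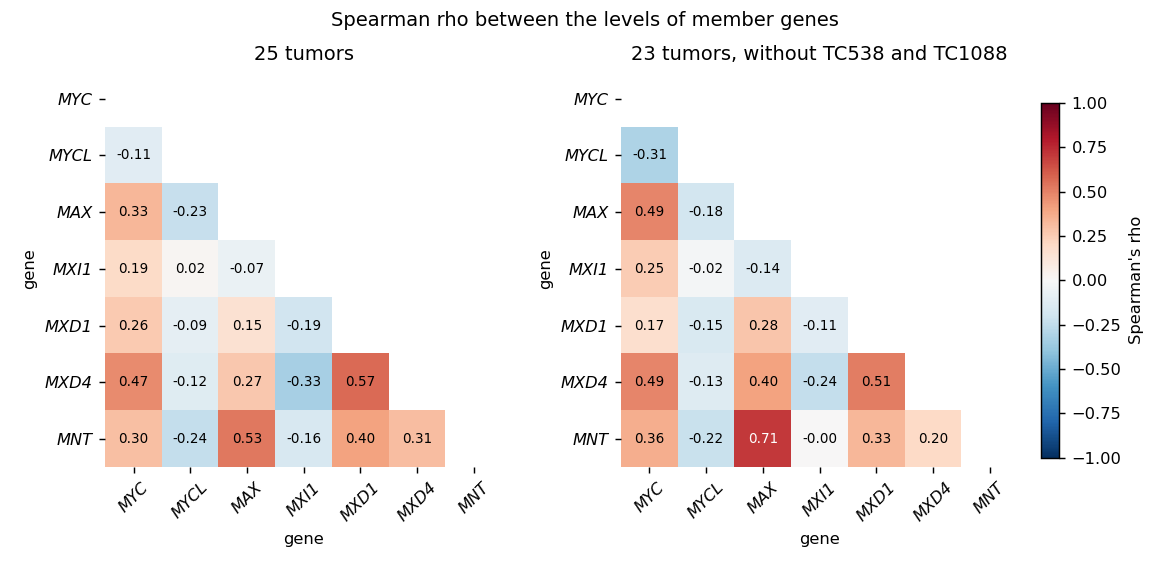
Spearman's rho between the levels of each pair of the 7 members, in 25 tumors (left) and in 23 tumors without TC538 and TC1088 (right), coloured from -1 (blue) to 1 (red). The rho of *MAX* with *MNT* was 0.53 on the left and 0.71 on the right, and that of *MYC* with *MYCL* was -0.11 and -0.31.

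**Figure D4:**
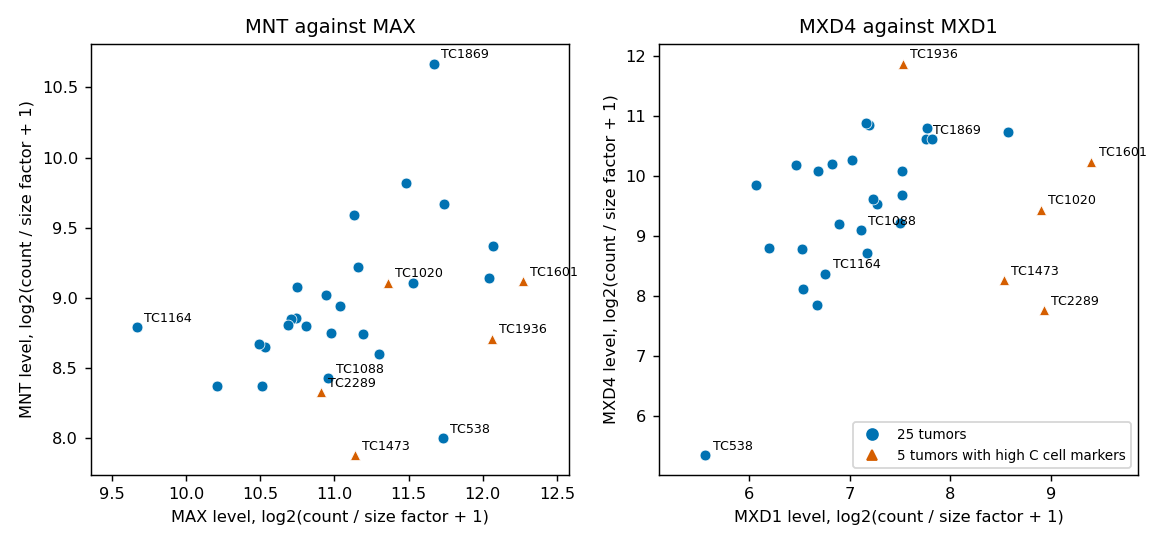
*MNT* against *MAX* (left) and *MXD4* against *MXD1* (right), both axes as log2(count / size factor + 1), with 1 point per tumor; circles are the 25 tumors with lower and triangles the 5 with high C cell markers. TC538 lies below the other circles on the left, at an *MNT* level of 8.00, and has the lowest level of both genes on the right.

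Genes that MYC is known to regulate were then read from the fit on the *MYC* level, from lists fixed by function. In the 25 tumors, 611 of 18105 genes rose with *MYC* (3.37%) and 535 fell (2.95%). The listed genes among them are named below with the size of each list, to be read beside these shares. Both counts depended on TC538 and TC1088, the 2 tumors whose *MYC* levels were farthest from the median. Without them, 13 of 17957 genes rose and 7 fell (0.111%), of which 14 were also called with the same sign in the 25 tumors. In the 23 tumors 2622 genes had an unadjusted p below 0.05.

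Of 30 genes for ribosome biogenesis, 0 passed the test in either direction in the 25 tumors. Their slopes were positive for 22 of 30, with a median of 0.13 beside 0.01 over all genes, but positive for 10 of 30, with a median of -0.10, without both libraries. Over all 30 tumors, which pools the 5 with high C cell markers, 9 of 30 rose and 0 fell, beside 10.5% of all genes rising. The list level was highest in TC2289 (1.25), the tumor with the most *MYC*, followed by TC1088 (0.54). It was lowest in TC538 (-0.63). The part of cell type and library in this was not tested. Of 15 genes for nucleotide and polyamine synthesis, *IMPDH2*, the rate-limiting enzyme of guanine nucleotide synthesis, rose (slope 0.66, SE 0.11, edgeR adjusted p = 0.000499), and *ODC1*, which begins polyamine synthesis and is a textbook MYC target, fell (slope -0.51, SE 0.12, adjusted p = 0.00977). Neither passed in the 23 tumors, where *IMPDH2* had a slope of 0.13 (SE 0.16) and *ODC1* had -0.51 (SE 0.20). None of 10 chaperone, mitochondrial and import genes, 6 glycolysis genes and 15 proliferation markers passed in either set of tumors.

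Of 10 cell cycle genes, 1 rose. *CDK4*, the kinase that pairs with D cyclins, had a slope of 0.98 (SE 0.26, edgeR adjusted p = 0.0205) in the 25 tumors and 1.32 (SE 0.29, adjusted p = 0.0606) in the 23. It was higher in 2 tumors than in the rest of the 25, at 15.15 in TC640 and 14.20 in TC22, against a highest level of 12.02 in the other 23 and a median of 11.01. Of 9 measured neighbours in RefSeq order, 5 had the same 2 tumors on top, among them *TSPAN31* at 14.68 and 13.77 (median 10.68), *MARCHF9* at 13.50 and 12.24 (median 8.82), *METTL1* at 11.19 and 9.87 (median 7.13) and *TSFM* at 14.70 and 14.00 (median 10.66). *AVIL* was the fifth. The other 4 did not. *OS9* was highest in TC22, at 15.97, but was 11.26 in TC640, below its median of 12.29. *AGAP2* was 8.89 in TC640 and 9.65 in TC22 (median 6.89) but was highest in TC1241, at 10.13. *B4GALNT1* was highest in TC1164, and *CYP27B1* was second highest in TC1744. These neighbours were named after their values were seen. *TSPAN31*, *MARCHF9*, *TSFM* and *CYP27B1*, also a neighbour, were 4 of the 13 genes that rose with *MYC* in the 23 tumors. TC640 and TC22 had *MYC* levels of 9.80 and 9.38, both above the median, and without TC538, TC1088 and TC640, 0 genes rose with *MYC* and 1 fell by edgeR, with 2841 genes at an unadjusted p below 0.05.

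Of 10 genes that MYC is known to repress, 2 rose and 0 fell with *MYC* in the 25 tumors. *CDKN1B*, which encodes the cyclin-dependent kinase inhibitor p27, had a slope of 0.61 (SE 0.15, edgeR adjusted p = 0.017), and the differentiation-related gene *NDRG1* had 0.46 (SE 0.13, adjusted p = 0.0256). Slopes were positive for 8 of 10, with a median of 0.48 beside 0.01 over all genes. In the 23 tumors none passed, slopes were positive for 9 of 10, with a median of 0.53 beside -0.01, and *CDKN1B* had 0.65 (SE 0.16, adjusted p = 0.0885).

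Of 14 genes that control the turnover of the MYC protein, 1 fell with *MYC* in the 25 tumors. It was *PPP2R5A*, a subunit of the phosphatase PP2A that destabilizes MYC, with a slope of -0.67 (SE 0.11, edgeR adjusted p = 0.000595), and -0.37 (SE 0.16, adjusted p = 0.286) in the 23. None of 18 coactivators and bound factors, 9 corepressors of the MXD and MNT proteins and 5 other proteins of the MAX and MLX network passed in the 25 or the 23 tumors. Of the cell type lists, *CD79A* of 8 tested lymphocyte markers and *PDGFRA* of 8 fibroblast markers were called as rising in the 25 tumors, and none of the follicular, C cell, macrophage, endothelial, parathyroid and muscle markers was. Beside them 3.37% of all genes rose, and slopes were positive for 7 of the 8 lymphocyte and 4 of the 8 fibroblast markers. In the 23 tumors neither gene passed, with slopes of -0.13 for *CD79A* (edgeR adjusted p = 0.821) and -0.50 for *PDGFRA* (adjusted p = 0.696).

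**Figure D5:**
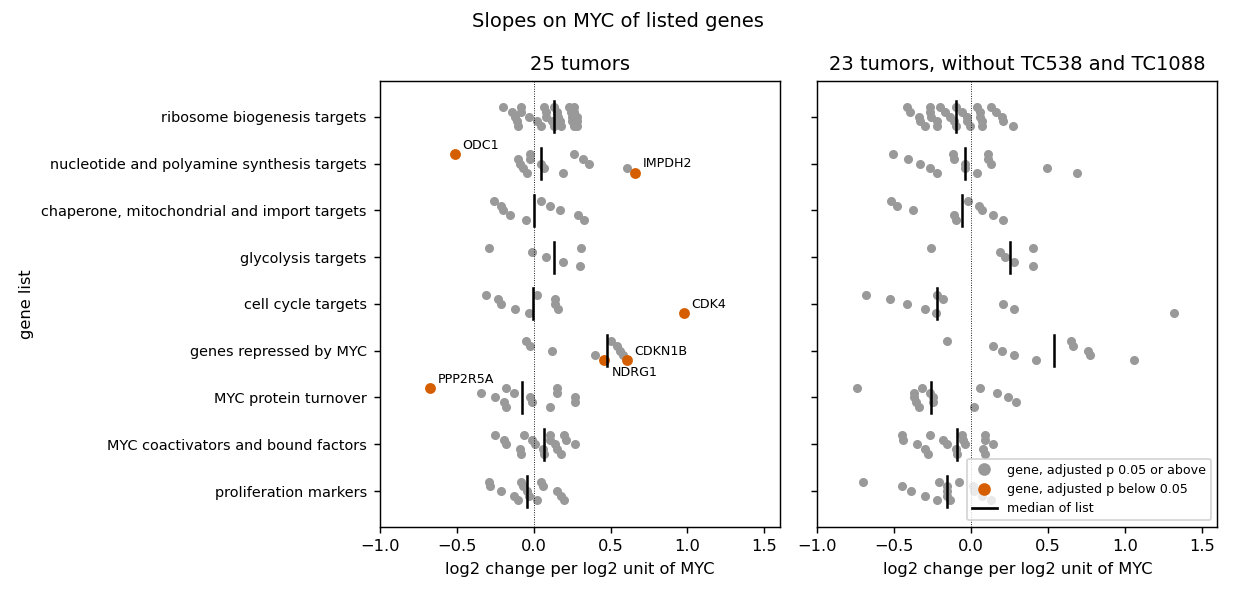
Slope of each listed gene on the *MYC* level, as log2 change per log2 unit of *MYC*, in 25 tumors (left) and in 23 tumors without TC538 and TC1088 (right); each point is a gene, orange points had an edgeR adjusted p below 0.05 and black bars are the list medians. The median of the genes repressed by MYC was 0.48 and 0.53, whereas that of the ribosome biogenesis genes was 0.13 and -0.10.

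The gene most like *MYC* by rank over the 25 tumors was *CCND1*, which encodes cyclin D1, the partner of CDK4, with rho = 0.76 and a slope of 0.71 (SE 0.14, edgeR adjusted p = 0.00186). In the 23 tumors its rho was 0.69 and its adjusted p was 0.0687. The next were *S100A16* (0.74), *DNASE2* (0.73), *DUSP22* (0.72), *PPP2R5B* (0.72), *LRRN2* (0.70), *CDKN1B* (0.70), *APBB1* (0.70), *GLDC* (0.69), the glycine decarboxylase, and *FKBP11* (0.69). The most opposed was *HUWE1* (-0.73), a ubiquitin ligase that acts on MYC proteins, with a small slope of -0.18 (SE 0.07, adjusted p = 0.116), and an adjusted p of 0.12 in the 23 tumors. It was followed by *GCSAML* (-0.73), *SH3BGRL2* (-0.72), *RNF216* (-0.71), *GTF2I* (-0.71), *SNRPB2* (-0.71), *FGF14* (-0.70), *MYO1A* (-0.70), the Mediator subunit *MED14* (-0.70) and *SKP2* (-0.69), a subunit of another ubiquitin ligase of MYC. *HUWE1* and *SKP2* belong to the turnover list, and neither passed the edgeR test. No gene passed when the test was made on ranks by permutation (lowest adjusted p = 0.0905, with 2550 genes at an unadjusted p below 0.05).

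The other members had their own companions. Those of *MAX* were the histone gene *H4C1* (rho = 0.81), *TRIM8* (0.81) and *ERH* (0.80), and the most opposed were *OR4S7* (-0.78), *ZNF407* (-0.77) and the elongation factor gene *AFF4* (-0.76). *MXI1* was matched best by *CCDC187* (0.84), *HEY1* (0.82), a target of Notch signalling, and *PIGR* (0.74), and was opposed by *CAPN6* (-0.79), *CDC25A* (-0.76), a phosphatase that activates cyclin-dependent kinases, and *SUSD5* (-0.73). *HEY1* had a slope of 0.98 (SE 0.18, edgeR adjusted p = 0.0118) on *MXI1*, where 0.293% of genes were called, and an adjusted p of 0.0163 without both libraries, where 0.317% were called. *MXD1* was matched by *STS* (0.80), *BRD2* (0.79), a BET family reader of acetylated histones, and *PPP1R15B* (0.79), and opposed by *ABCB10* (-0.80) and *ZNHIT6* (-0.74). Of 9 C cell markers tested, *CALCA* and *SCG2* rose with *MXD1* in the 25 tumors, and *CALCA* rose in the 23, where 1.25% of all genes were called. In the 25 tumors 8.04% of all genes rose with *MXD1*. With *MXD4*, 2 of the 9 rose in the 25 tumors, where 16.6% of all genes rose, and 1, *CALCA*, rose in the 23, where 6.78% did.

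*MXD4* and *MNT* were each matched by many genes. The most like *MXD4* were *UNC45A* (rho = 0.92), a myosin chaperone, *GAK* (0.90) and *WDR1* (0.89), and the most opposed *TYW3* (-0.90), *TASP1* (-0.89) and *ERCC6L* (-0.86). In the 23 tumors rho was 0.93 for *UNC45A*, and 11.4% of all genes were called with *MXD4*. The most like *MNT* were *PRR14* (0.88), *HGS* (0.87) and *FAM222B* (0.86), and the most opposed *TOPORS* (-0.84), *LRRC19* (-0.84) and *COPG2* (-0.82), beside 33.2% of genes called in the 25 and 16.2% in the 23 tumors.

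Along *MNT*, listed genes moved in both directions, as did genes at large. Of 30 ribosome biogenesis genes, 8 rose and 7 fell with *MNT* in the 25 tumors, where 14% of all genes rose and 19.3% fell, and 4 rose (*PPAN*, *RRP9*, *IMP4* and *MYBBP1A*) and 2 fell (*GNL3* and *MPHOSPH10*) in the 23, where 9.39% of genes rose and 6.83% fell. The glycolysis genes *ENO1* and *TPI1* rose with *MNT* in both sets, 2 of 6 tested in the 23 tumors. Of 15 proliferation markers, 2 fell in the 23 tumors, *TOP2A* and *KIF11*, and 0 rose. Along *MAX*, 4 of the 30 ribosome biogenesis genes rose and 5 fell in the 23 tumors, and 3 C cell markers of 9 tested rose (*CHGB*, *SCG2* and *SV2A*), beside 10.7% of genes rising and 9% falling.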

How the data were processed

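RNA from 30 primary canine thyroid tumors was extracted with TRIzol and made into ribosome-depleted total RNA libraries. Reads were mapped by the authors with STAR (build CanFam3.1), and the deposited values are raw read counts per Ensembl gene. The strand setting of the counting was not given in the sources used here, so overlapping and antisense genes cannot be told apart. The table held 30424 genes, 15780 with a symbol, and 0 columns of no tumor. All samples carry 1 label, so tests measured relations across tumors. Members and gene lists were chosen with earlier results of these data known.

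Levels were log2(count / median-of-ratios size factor + 1). A list level was the mean of its genes' levels, each relative to its median over 30 tumors. Ward clustering of 764 variable genes, members left out, gave branches of 25 and 5 tumors. For each member or list level, a slope was fitted for every gene that reached 10 counts in 5 or more tumors by edgeR 4.0.16 (quasi-likelihood, TMM, R 4.3.3), with Benjamini-Hochberg adjustment over all genes tested. For a pair, the slope was read in the fit on the member named after "on", which in the count of pairs is the one listed earlier. Correlations used 100000 two-sided permutations. Genes besides members were named by rule: the 10 highest and 10 lowest in Spearman's rho with *MYC*, 3 each for other members, up to 4 per list by adjusted p on *MYC*, and 3 neighbours on each side of *MYC*, *MYCL* and *MYCN* by symbol in the RefSeq table of UU_Cfam_GSD_1.0, from which no coordinates were taken. A gene named by this rule for *MXD1* is not reported here. In simulated counts of 17907 genes with known slopes on *MYC*, 24 of 100 genes with a slope of 0.5 and 76 of 100 with a slope of 1 were recovered. Alternatives covered normalization, DESeq2 1.42.0, count filters, covariates, ranks and left-out tumors. Counts were reads and not molecules, so the floor of 3 counts covers counting error only. Whether p-values reflect more than the spread between these tumors depends on each tumor being a separate dog. The labels do not state this, but the study counts its cases by dog, with sequencing data for 30 of them.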

Additional observations from a re-analysis of the deposited data

How the results depend on the processing

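The counts of genes that rose and fell with *MYC* (611 and 535) moved by over 1.5 times under most alternatives. Genes that rose numbered 928 with DESeq2, 921 without a count filter, 1960 over all 30 tumors, 1252 without TC1088, 343 without TC538 and 371 with follicular and C cell levels as covariates. Genes that fell numbered 997 without a count filter, 870 over all 30 tumors, 1896 without TC1088, 44 without TC538, 20 with total count as covariate and 1014 with follicular and C cell levels. Without TC538 and TC1088, which are also the 2 tumors farthest in *MYC*, 13 rose and 7 fell; without TC640 as well, 0 rose and 1 fell. The permutation test on ranks called 0 in each direction. The other alternatives gave 462 to 588 rising and 376 to 794 falling genes. Leaving out TC538, both libraries or TC640 was chosen after the data were seen.

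The slope of *MYCL* on *MYC* became a rho of -0.11 on ranks. The slope of *MXD1* on *MYC* (0.07) was -0.12 without TC538 and TC1088, -0.08 without TC538, -0.05 without TC640 as well and -0.01 with total count as covariate, and 0.37 (adjusted p = 0.0314) over all 30 tumors. *MXD4* on *MYCL* went from -0.04 to 0 without both libraries, and *MYC* on the follicular list from -0.21 to 0.05. The cause of these moves was not tested. The SD of the *MYC* level was 1.29 with TMM scaling and 1.25 with a pseudocount of 8 beside 1.27. No paired analysis was possible because all samples belong to 1 group. Low counts limit *MYCL* (7 counts) and TC538 most.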

Other observations

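The 5 tumors split off by clustering on other genes lay as follows beside the other 25, with no test made, since the split was drawn from these data. The *MYC* level was 9.39 to 13.17 in the 5 (median 10.29) and 6.44 to 11.43 in the 25 (median 8.75). The *MXD1* level was 7.53 to 9.40 (median 8.90) against 5.57 to 8.57 (median 7.11). The *MYCL* level was 4.45 to 9.73 (median 8.23) against 3.41 to 8.66 (median 5.07). *MAX* was 10.91 to 12.27 against 9.67 to 12.07, *MXI1* 8.97 to 10.58 against 7.61 to 10.45, *MXD4* 7.76 to 11.88 against 5.34 to 10.88, and *MNT* 7.88 to 9.12 against 8.00 to 10.67. The ranges overlapped for all 7 members.

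Of the genes next to *MYCN* in RefSeq order, *DDX1* was highest in TC2289, at 12.89 against a median of 11.83. *VSNL1* was highest in TC1936, at 9.74 against a median of 0.92, and *RAD51AP2* was highest in TC2289, at 4.51 against a median of 0.85. *NBAS* was at 11.56 in TC2289, close to its median of 11.63. *LRATD1* was at 0 in TC2289 against a median of 10.37, and *CYRIA* was at 8.46 against 9.30.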
